A study of Mus musculus with 6 samples.

Results

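Mitotic kinetochore and spindle genes encode the machinery that condenses, attaches and separates chromosomes and then cuts the cell apart. Members were set by a gene symbol pattern over the CENP family, mitotic kinesins, Aurora and Polo kinases, checkpoint proteins, condensins, spindle proteins and cytokinesis factors. The pattern uses no measured value, but it was chosen with earlier results of these data known. The symbol pattern matched 77 of the 55487 genes in the files, each of them once. All 77 passed the filter on low counts that left 18539 genes for testing, and the smallest count of any member in any library was 80.

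The data are bulk RNA-seq counts of polyadenylated RNA from colonic crypt cells isolated from C57BL/6 mice aged 4 weeks. The 3 control libraries came from M14(f/f) mice, in which both M14 alleles carry loxP sites, and the 3 mutant libraries from M14(f/f);Villin-Cre mice. Villin-Cre expresses Cre recombinase in the gut epithelium, so other cells in the preparation keep M14, read here as Mettl14, a subunit of the enzyme that places N6-methyladenosine on RNA. No library from mice with Cre and intact M14 was analysed here, so an effect of Cre and an effect of losing Mettl14 cannot be told apart. The labels do not say whether each library is a separate mouse, so p-values measure only the spread between these samples, which may be technical. The comparison asks whether transcripts of the division machinery differ between the genotypes.

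In a dividing cell the inner kinetochore assembles on centromeric chromatin and recruits the outer kinetochore, which holds the ends of spindle microtubules. The spindle checkpoint delays anaphase until every chromosome is attached, after which the anaphase-promoting complex releases cohesin and the cell divides. Most of these transcripts peak in G2 and M phase, under the DREAM and MuvB complexes with B-Myb and FoxM1. In the colon they come mainly from transit-amplifying and stem cells in the lower crypt, so in bulk RNA their level follows both the share of dividing cells and the RNA per cell. These cannot be told apart here.

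Library totals ran from 24181631 to 35183636 counts, and a count of 0 would allow up to 0.0820 to 0.120 CPM (3 counts, counting error only). Mettl14 stood at 26.2, 20.9 and 22.0 CPM in controls and at 14.0, 13.9 and 10.5 CPM in mutants (log2 fold change -0.85, SE 0.13, adjusted p = 6.22e-04 by edgeR's quasi-likelihood test). All 10 epithelial markers were detected, with sums of 13640 to 15450 CPM in controls and 11000 to 12970 CPM in mutants. Of these 10, 4 fell, among them Epcam from a mean of 2180 to 1621 CPM, and 1 rose, Cdh1 from 1413 to 1666 CPM. Mutant 1 stood apart: Xist, transcribed from the inactive X chromosome, was at 652 CPM there, at 53.2 CPM in mutant 2 and at 1.28 to 1.78 CPM in the other 4 libraries. The Y-linked Ddx3y was at 0.541 CPM in mutant 1 and at 38.0 to 58.4 CPM elsewhere. Mutant 2 thus held both Xist and Y-linked RNA. The labels give no sex, and whether mutant 2 mixes RNA of mice of both sexes was not tested. The share of counts on 1 ribosomal RNA row, CT010467.1, was 12.9% in mutant 1 and 5.16% to 8.90% in the other libraries. Because Xist was above the controls in both, results below are also given without mutant 1, or without mutant 1 and mutant 2.

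As a set, these genes changed little. Of 77 members 18 rose in mutants, 6 fell and 53 did not pass the threshold (adjusted p under 0.05, edgeR, adjusted over all tested genes). That is 31.2% of members called, against 46.3% of all tested genes. Rises made up 23.5% and falls 22.8% of all tested genes. No member changed by 2-fold, as 18.4% of all tested genes did, and 5 members (6.49%) changed by at least 1.5-fold in the fit, against 36.4%. The median log2 fold change was 0.07 for members and 0.01 for all tested genes, and the median size without sign was 0.19 and 0.41. All tested genes include many of low abundance with imprecise folds, and the median SE was 0.102 for members and 0.151 for all. Every mutant lay on the same side of every control, in CPM, for 34 members (44.2%), against 56.9% of all tested genes, and the 34 included all 24 called members. With libraries scaled by their totals in place of TMM factors, 23 members rose and 4 fell (35.1% called, against 44.6% of all tested genes). Rises were then 85.2% of member calls, against 75% with TMM. That scaling moved all tested genes too: 59% of all calls were then rises, and the median log2 fold change of all genes went from 0.01 to 0.08.

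**Figure D1:**
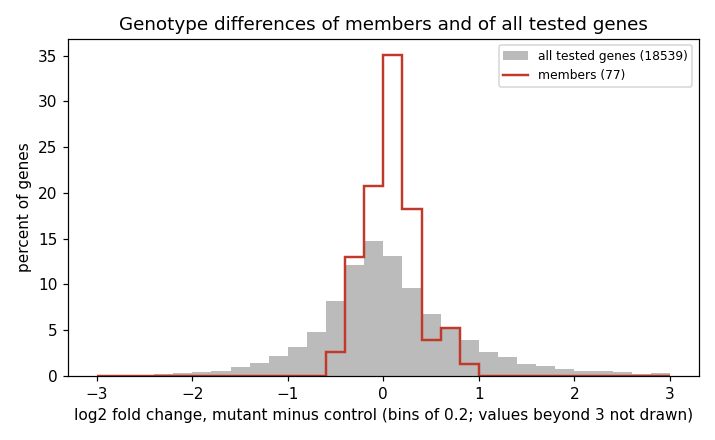
Percent of genes (vertical axis) in bins of log2 fold change, mutant minus control (horizontal axis), for the 77 members (red line) and all 18539 tested genes (grey area). Members lie between -0.49 and 0.84, while the grey area is wider on both sides.

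For the 53 members that were not called, the data limit how large a difference could be. The 95% interval of the log2 fold change lay within 1.5-fold in either direction (0.58 on the log2 scale) for 49 of them. Over all 53 the intervals reached from -0.79 to 0.64. Of these 53, 5 had an unadjusted p under 0.05 and 10 had groups that did not overlap.

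How far the set lay from 0 depended on which mutant libraries were used. The median deviation of the 77 members from the control mean, on the scale of log2(CPM + 0.5), was 0.154 in mutant 1, 0.067 in mutant 2 and 0.004 in mutant 3. Among the 3 mutants, 52 members were highest in mutant 1 and 42 were lowest in mutant 3. Without mutant 1, 13 members rose and 9 fell (28.6% called, against 43.9% of all tested genes). Without control 3, 11 rose and 5 fell (20.8%, against 35.7%). With mutant 3 as the only mutant library, the median log2 fold change was -0.03, against 0.07 with all libraries. Both lie near 0, as the SD within groups of the members' median deviation was 0.056. Of the 24 calls, 15 held in all 6 fits that left out a single library, namely 10 of the 18 rises and 5 of the 6 falls. Taken alone, such a fit kept from 16 (without control 3) to 22 (without mutant 2) of the 24. Without mutant 1 and mutant 2, which leaves 1 mutant library, none of the 24 changed the sign of its log2 fold change. Since mutant 1 is the only library with high Xist and near-absent Y-linked RNA, whether its sex-linked profile has a part in its level of mitotic transcripts was not tested.

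**Figure D2:**
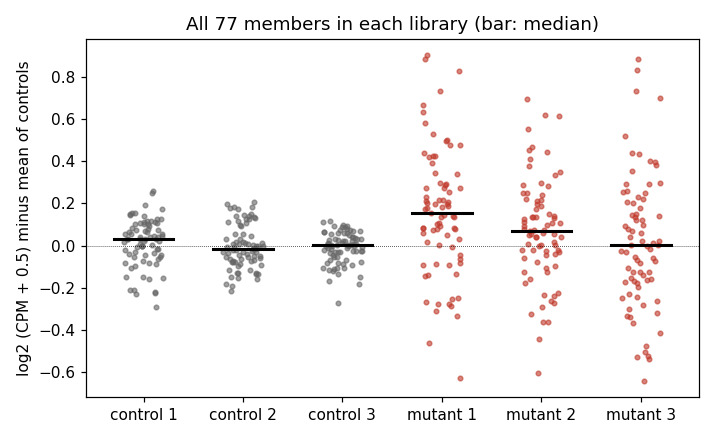
Each point is 1 of the 77 members, placed by its log2(CPM + 0.5) minus the mean of the 3 controls (vertical axis) in each library (horizontal axis), and bars are medians. The median is 0.154 in mutant 1 and 0.004 in mutant 3, and single members spread to both sides of 0 in every mutant.

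Promoters of the members share sequence features that the choice by name did not use. RefSeq promoter records on GRCm38.p6, each from 250 bases before to 50 bases after a transcription start, matched 69 of the 77 members. No record was matched for Aurkb, Cdca2, Incenp, Kif20a, Ska1, Smc4, Spc24 and Tpx2. The letters TTTGAA, the core of the cell cycle genes homology region read by the LIN54 subunit of MuvB, occurred on either strand in the promoters of 42 members (60.9%), against 20.2% of all 27025 genes in the table. The letters CCAAT, the box read by the factor NF-Y, occurred on either strand in 43 members (62.3%), against 41.1% of all genes, and both motifs in 33 members (47.8%), against 7.97%. A match to so short a motif is a description of letters and not a bound site. Of the matched members, TTTGAA was present in 8 of 14 that rose, 3 of 6 that fell and 31 of 49 that were not called.

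The 150 bases before the start are shown for 8 members whose stretch overlaps no annotated exon: 4 that rose, 2 that fell and 2 that were not called. Each is read 5′ to 3′ on the gene's strand, and capitals mark TTTGAA and CCAAT or their reverse complements, TTCAAA and ATTGG.
Nuf2 (rose), chr1:169531465-169531614, minus strand: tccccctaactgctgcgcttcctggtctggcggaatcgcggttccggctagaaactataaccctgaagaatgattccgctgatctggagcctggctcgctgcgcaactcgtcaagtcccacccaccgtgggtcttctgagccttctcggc
Ckap2l (rose), chr2:129297213-129297362, minus strand: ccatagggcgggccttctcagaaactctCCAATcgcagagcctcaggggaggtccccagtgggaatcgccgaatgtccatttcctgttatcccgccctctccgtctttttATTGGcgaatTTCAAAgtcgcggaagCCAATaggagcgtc
Ckap2 (rose), chr8:22185820-22185969, minus strand: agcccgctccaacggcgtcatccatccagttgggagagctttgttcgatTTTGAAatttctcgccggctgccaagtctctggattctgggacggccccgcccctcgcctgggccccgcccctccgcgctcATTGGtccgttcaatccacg
Mki67 (rose), chr7:135716380-135716529, minus strand: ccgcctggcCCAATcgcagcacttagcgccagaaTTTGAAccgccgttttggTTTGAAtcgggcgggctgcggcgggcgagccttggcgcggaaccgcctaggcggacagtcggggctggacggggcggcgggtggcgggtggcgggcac
Kif11 (fell), chr19:37376232-37376381, plus strand: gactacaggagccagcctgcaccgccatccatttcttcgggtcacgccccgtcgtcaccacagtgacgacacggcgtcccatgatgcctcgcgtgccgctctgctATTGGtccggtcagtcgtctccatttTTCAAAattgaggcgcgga
Hmmr (fell), chr11:40733438-40733587, minus strand: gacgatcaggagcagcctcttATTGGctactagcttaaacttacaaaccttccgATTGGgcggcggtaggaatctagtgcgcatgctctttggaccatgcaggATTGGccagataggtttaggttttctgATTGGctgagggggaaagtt
Kif23 (not called), chr9:61946800-61946949, minus strand: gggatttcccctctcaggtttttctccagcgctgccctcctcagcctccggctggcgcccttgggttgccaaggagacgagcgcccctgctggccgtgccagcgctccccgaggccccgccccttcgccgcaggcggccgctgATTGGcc
Ttk (not called), chr9:83834539-83834688, plus strand: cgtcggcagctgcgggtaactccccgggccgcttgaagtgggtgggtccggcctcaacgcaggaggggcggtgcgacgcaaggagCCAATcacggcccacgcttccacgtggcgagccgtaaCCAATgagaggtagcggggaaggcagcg
In these stretches Ckap2l, Ckap2 and Mki67, which rose, and Kif11, which fell, hold both motifs. Nuf2, which rose, holds neither, and Hmmr, which fell, holds CCAAT boxes only. The printed stretch leaves out part of the range used for the counts above. Hmmr, Kif23 and Ttk hold TTTGAA, on either strand, beginning at bases 9, 3 and 8 after the start, and were counted as holding it. Other members whose stretch overlaps no annotated exon are not shown. Among them Cenpb, Plk2 and Plk4, which rose, and Cenpv, which fell, hold neither motif.

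Among the 17 genes of the inner kinetochore and centromeric chromatin 3 rose, 1 fell and 13 did not pass. The share called was 23.5%, against 46.3% of all tested genes. Cenpb, which binds a short box in centromeric satellite DNA (minus strand of chromosome 2, 131175182 to 131180067), stood at 162, 160.3 and 165 CPM in controls and at 229, 216 and 219.9 CPM in mutants. Every mutant lay above every control by far more than the replicate spread (log2 fold change 0.45, SE 0.067, adjusted p = 4.88e-04, edgeR). Cenpw and Cenps encode histone-fold partners in the CENP-T-W-S-X complex. Cenpw was at 4.11, 3.62 and 3.10 CPM in controls and at 6.30, 6.12 and 5.36 CPM in mutants (0.71, SE 0.17, adjusted p = 0.00653). Cenps was at 3.88, 2.85 and 2.90 CPM in controls and at 5.22, 4.60 and 5.496 CPM in mutants (0.67, SE 0.18, adjusted p = 0.0137). Both rises rest on low levels, and that of Cenps was lost without control 2 (adjusted p = 0.0529) or control 3 (adjusted p = 0.0612).

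Their partner Cenpx did not pass and pointed down, at 13.2, 10.5 and 13.3 CPM in controls and 9.66, 10.1 and 9.90 CPM in mutants (adjusted p = 0.0513, and 0.0167 without control 2, edgeR). The ratio of Cenps to Cenpx, per length, was 0.165, 0.153 and 0.123 in controls and 0.305, 0.258 and 0.313 in mutants. The ratio is a description, since neither gene overlapped between the groups and they differed in opposite directions. Cenpv, which binds microtubules and takes part in centromere organisation, was the member that fell, from 31.6 ± 3.11 to 26.1 ± 0.278 CPM (SD, n = 3 each). Its log2 fold change was -0.27 (adjusted p = 0.0252, edgeR), and the call was lost in 4 of the 6 fits that left out a library (adjusted p up to 0.0751, without control 1, and also without control 3, mutant 2 or mutant 3). Cenpa, the centromeric histone H3 variant on which the kinetochore is built, was at 29.2 ± 1.75 and 31.9 ± 3.08 CPM (adjusted p = 0.277).

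The outer kinetochore split within a single complex. The NDC80 complex, the main microtubule holder, has the subunits Ndc80, Nuf2, Spc24 and Spc25, of which Ndc80 and Nuf2 pair along a long coiled coil. Ndc80 (minus strand of chromosome 17, 71496100 to 71526857) was at 20.9, 20.9 and 21.6 CPM in controls and fell to 17.4, 16.3 and 13.3 CPM in mutants (log2 fold change -0.44, SE 0.11, adjusted p = 0.00775, edgeR). Nuf2 (minus strand of chromosome 1, 169497934 to 169531464) was at 15.5, 16.2 and 16.8 CPM in controls and rose to 22.7, 23.9 and 19.9 CPM in mutants (0.45, SE 0.094, adjusted p = 0.00332). The partners thus moved in opposite directions, with no overlap between groups for either.

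Per length, in TPM (counts over exon length, scaled to a fixed sum per library), Ndc80 was at 8.48 ± 0.246 in controls and 6.32 ± 0.567 in mutants, and Nuf2 at 6.64 ± 0.148 and 9.19 ± 0.880 (SD, n = 3 each). Their order therefore differed between the groups. The ratio of Nuf2 to Ndc80 was 0.759, 0.793 and 0.798 in controls and 1.34, 1.51 and 1.53 in mutants, a log2 difference of 0.89. The ratio restates the opposite directions of both genes and carries no test of its own. Spc24 and Spc25 did not pass, at 13.6 ± 1.197 and 14.8 ± 0.628 TPM and at 23.2 ± 2.46 and 23.6 ± 0.452 TPM. With only mutant 3 on the mutant side, Ndc80 stood at -0.69 (log2 fold change) and Nuf2 at 0.27, and the call of Nuf2 was lost (adjusted p = 0.130).

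**Figure D3:**
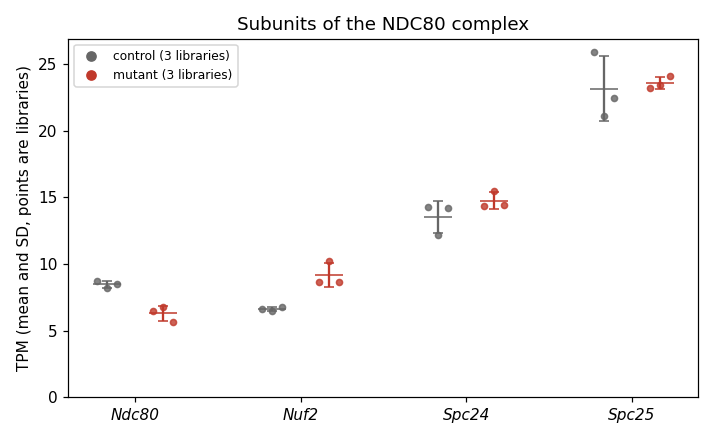
TPM (vertical axis, from 0) of the 4 subunits of the NDC80 complex, with points for libraries and bars for the mean and SD of 3 controls (grey) and 3 mutants (red). Ndc80 is lower and Nuf2 higher in every mutant than in any control, while Spc24 and Spc25 overlap between the groups.

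The other 8 genes of this layer included 2 that rose. Of all 10 outer kinetochore genes 40% were called, against 46.3% of all tested genes. Cenpe, a kinesin that carries chromosomes to the metaphase plate, was at 82.2, 106 and 100.4 CPM in controls and at 126, 114 and 129.9 CPM in mutants (0.36, SE 0.10, adjusted p = 0.0173, edgeR). Control 1 was the lowest library for it, and without control 1 its value was 0.24 and the call was lost (adjusted p = 0.0573), as it was without mutant 3 (adjusted p = 0.0557). Ska3, of the SKA complex that couples kinetochores to shrinking microtubules, stood at 6.03 ± 0.317 and 7.91 ± 0.969 CPM (0.39, adjusted p = 0.0463). Its call was lost in 5 of 6 fits without a library, all except that without mutant 3 (adjusted p up to 0.147, without mutant 1), and without mutant 1 and mutant 2 its value was 0.19.

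None of the 5 spindle checkpoint genes passed, while 46.3% of all tested genes did. These 5 genes encode the proteins that hold back Cdc20 while any kinetochore is unattached. The kinase gene Ttk was at 12.01, 13.2 and 13.0 CPM in controls and 11.98, 13.8 and 12.6 CPM in mutants, with a 95% interval of the log2 fold change of -0.22 to 0.23. Bub1b, which encodes BubR1, was at 40.05 ± 2.06 and 39.0 ± 3.52 CPM (interval -0.23 to 0.15) and Bub3 at 38.9 ± 1.29 and 37.8 ± 2.21 CPM (interval -0.20 to 0.12). Mad2l1, the Mad2 gene, came closest to the threshold, at 23.3, 19.3 and 22.0 CPM in controls and 25.0, 25.1 and 25.1 CPM in mutants (0.22, adjusted p = 0.0673, and 0.0499 without control 1, edgeR).

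Of 8 genes of Aurora and Polo kinases and the chromosomal passenger complex 4 rose and none fell. The share called was 50%, near the 46.3% of all tested genes. Plk2, a Polo kinase that acts in centriole duplication and stress responses more than in mitosis itself (plus strand of chromosome 13, 110395046 to 110400844), was at 33.5, 31.4 and 34.5 CPM in controls and at 61.7, 45.3 and 61.7 CPM in mutants (0.76, SE 0.12, adjusted p = 5.37e-04, edgeR). Mutant 2 was the lowest mutant and still above every control. Incenp, the scaffold of the passenger complex, rose from 86.3, 86.7 and 90.02 CPM to 122, 108 and 103 CPM (0.34, SE 0.079, adjusted p = 0.00620), and its value was 0.20 without mutant 1 and mutant 2 (adjusted p = 0.107). Plk4, the kinase that starts centriole duplication, rose from 18.9 ± 0.452 to 23.4 ± 1.605 CPM (0.31, adjusted p = 0.0129), a call lost without control 3 (adjusted p = 0.0707) or mutant 3 (adjusted p = 0.0550).

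Aurkb, the kinase of the same complex as Incenp, rose from 25.4 ± 1.195 to 30.1 ± 0.815 CPM (0.24, adjusted p = 0.0212, edgeR). That call was lost without control 2, control 3, mutant 1 or mutant 3 (adjusted p of 0.0620, 0.129, 0.0621 and 0.0580). Birc5, the survivin subunit of the passenger complex, lies outside the symbol pattern and rose from 34.4 ± 1.23 to 50.4 ± 2.29 CPM (0.55, adjusted p = 1.70e-04). The borealin gene Cdca8 did not pass, at 33.1, 32.5 and 36.4 CPM in controls and 31.9, 31.1 and 26.2 CPM in mutants (-0.19, adjusted p = 0.112, and -0.40, adjusted p = 0.0259, without mutant 1 and mutant 2). Within libraries the ratio of Incenp to Cdca8, per length, was 2.96 to 3.19 in controls and 4.15 to 4.69 in mutants, again as a description of values already given.

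Among 6 genes of anaphase onset and cohesin release 2 rose (33.3% called, against 46.3% of all tested genes). Cdca5, the gene of sororin, which protects cohesin on chromosomes until anaphase (plus strand of chromosome 19, 6084983 to 6091777), had the largest log2 fold change of the 77 members. It was at 6.16, 5.37 and 6.26 CPM in controls and at 11.5, 9.37 and 10.9 CPM in mutants (0.84, SE 0.13, adjusted p = 7.52e-04, edgeR). Espl1, the gene of separase, which cuts cohesin, rose from 17.2 ± 0.871 to 22.2 ± 1.49 CPM (0.37, adjusted p = 0.00695), and its value was 0.23 without mutant 1 and mutant 2 (adjusted p = 0.191). The activator of the anaphase-promoting complex, Cdc20, was at 24.3, 21.3 and 22.0 CPM in controls and 20.5, 21.3 and 16.0 CPM in mutants (-0.23, adjusted p = 0.129). Without mutant 1 and mutant 2 it was -0.52 (adjusted p = 0.0153). Cdca3, which promotes mitotic entry, was at 42.6 ± 5.65 and 36.7 ± 4.42 CPM (-0.22, adjusted p = 0.155, and -0.46, adjusted p = 0.0404, without the same libraries).

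Of 12 mitotic kinesins 1 rose, 1 fell and 10 did not pass (16.7% called, against 46.3% of all tested genes). Kif11, the motor that pushes spindle poles apart (plus strand of chromosome 19, 37376403 to 37421859), was at 74.2, 79.04 and 76.3 CPM in controls and fell to 64.2, 62.4 and 64.4 CPM in mutants (-0.27, SE 0.064, adjusted p = 0.00715, edgeR). The fall was small and larger than the spread within either group. Kif22, a kinesin that binds chromosome arms, rose from 27.2 ± 2.51 to 35.2 ± 4.95 CPM (0.37, adjusted p = 0.0206). Mutant 1 was its highest library, and without mutant 1 its value was 0.24 (adjusted p = 0.0674); the call was also lost without control 2 (adjusted p = 0.0824) or control 3 (adjusted p = 0.0686).

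Kif4, a chromosome-arm kinesin on the X chromosome, did not pass, at 45.0, 46.4 and 39.6 CPM in controls and 50.2, 49.6 and 49.4 CPM in mutants (0.19, adjusted p = 0.0691, edgeR). Mutant 1, with its high Xist, did not differ from the other mutants for this X-linked gene by more than 1 CPM. That describes 1 gene, and the part of the sex-linked profile in its level was not tested. Kif20a, a kinesin of the central spindle, was at 30.1 ± 2.21 and 34.7 ± 3.07 CPM (0.20, adjusted p = 0.0878). Kif18a, which dampens chromosome movements at the metaphase plate, had the lowest level per length of all members in controls, at 1.92 ± 0.133 TPM, and 2.05 ± 0.108 TPM in mutants.

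Of 7 spindle assembly and centriole genes 3 rose, 2 fell and 2 did not pass (71.4% called, against 46.3% of all tested genes). Nusap1, which bundles spindle microtubules near chromosomes (plus strand of chromosome 2, 119618298 to 119651244), had the largest fall of the 77 members. It was at 42.9, 41.8 and 44.2 CPM in controls and at 31.0, 31.4 and 29.4 CPM in mutants (-0.49, SE 0.068, adjusted p = 3.04e-04, edgeR). Hmmr, a spindle pole protein also known as a hyaluronan receptor, fell from 34.0, 34.8 and 37.3 CPM to 29.2, 28.1 and 24.4 CPM (-0.38, SE 0.086, adjusted p = 0.00556). Neither fall lost its call in any fit without a library or without mutant 1 and mutant 2.

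In the same group Ckap2l, which encodes a protein of mitotic spindles and their poles (minus strand of chromosome 2, 129268210 to 129297212), rose from 31.5, 27.7 and 28.7 CPM to 46.9, 40.3 and 38.8 CPM (0.52, SE 0.091, adjusted p = 0.00125, edgeR). Its relative Ckap2 rose from 16.8 ± 0.375 to 21.6 ± 1.019 CPM (0.36, adjusted p = 0.00470), and was at 0.28 without mutant 1 and mutant 2 (adjusted p = 0.109). Per length, the ratio of Ckap2l to Nusap1 was 0.950, 0.858 and 0.840 in controls and 1.96, 1.66 and 1.71 in mutants, which is a log2 difference of 1.01 and describes the rise and the fall given above. Tpx2, which activates Aurora A on the spindle, rose from 63.4 ± 2.61 to 73.4 ± 3.90 CPM (0.21, adjusted p = 0.0338), a call lost without control 2, control 3, mutant 1 or mutant 3 (adjusted p of 0.116, 0.147, 0.0866 and 0.0702).

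**Figure D4:**
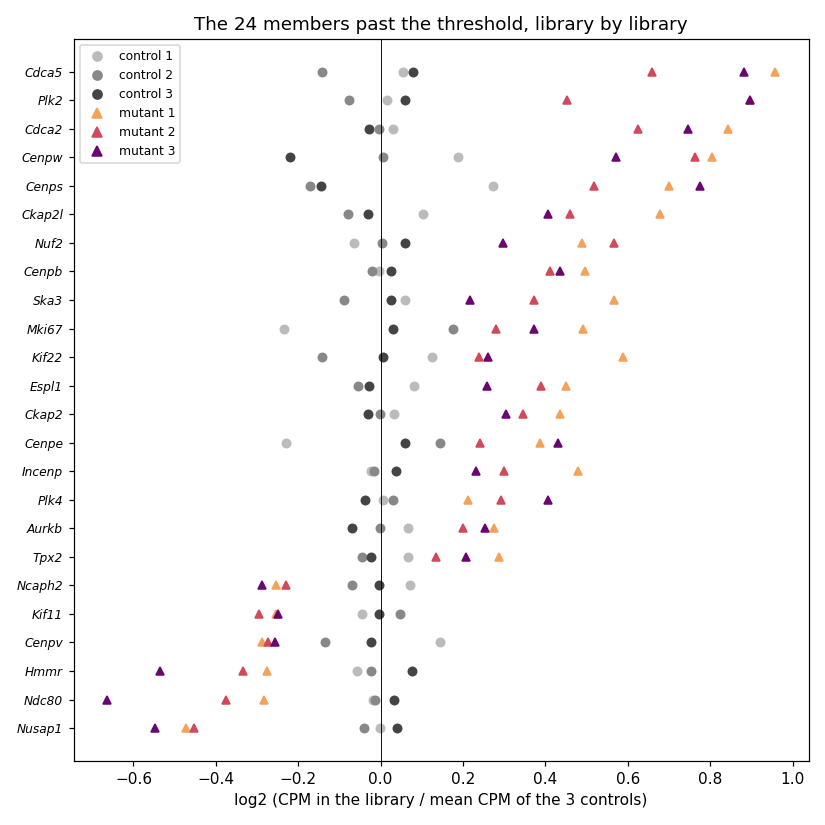
The 24 called members (rows), ordered by log2 fold change, with each library placed by the log2 of its CPM over the mean of the 3 controls (horizontal axis); circles are controls and triangles mutants. The groups do not overlap in any row, from Cdca5 with the largest rise to Nusap1 with the largest fall.

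Condensins and the chromosome surface gave 2 rises and 1 fall among 9 genes (33.3% called, against 46.3% of all tested genes). Cdca2, which targets protein phosphatase PP1 to chromatin at the end of mitosis (minus strand of chromosome 14, 67676331 to 67715841), had the smallest p of all members. It was at 24.5, 23.9 and 23.5 CPM in controls and rose to 43.02, 36.9 and 40.2 CPM in mutants (0.74, SE 0.078, adjusted p = 5.83e-05, edgeR). Ncaph2, a subunit of condensin II, fell from 85.1, 77.2 and 80.8 CPM to 67.95, 69.1 and 66.4 CPM (-0.26, SE 0.067, adjusted p = 0.0112). With library totals in place of TMM scaling that call was lost (adjusted p = 0.0793), as was that of Cenpv (adjusted p = 0.126). Smc2, a core ATPase of both condensins, was at 57.7 ± 8.40 and 65.3 ± 3.51 CPM (0.18, adjusted p = 0.188, and 0.28, adjusted p = 0.0428, without control 2).

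Mki67, which encodes the proliferation marker Ki-67 that coats mitotic chromosomes (minus strand of chromosome 7, 135689784 to 135716361), was the most abundant member per length, at 177 ± 19.8 TPM in controls and 234 ± 10.2 TPM in mutants. In CPM it stood at 583, 775 and 701 in controls and at 965, 833 and 888 in mutants (0.38, SE 0.11, adjusted p = 0.0200, edgeR). Control 1 was well below the other controls and mutant 1 above the other mutants. The call was lost without control 1 (0.27, adjusted p = 0.069), control 3 (adjusted p = 0.0662) or mutant 1 (adjusted p = 0.0579), and without mutant 1 and mutant 2 (adjusted p = 0.115).

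None of the 3 cytokinesis genes passed, while 46.3% of all tested genes did. Anln, an actin-binding scaffold of the cleavage furrow, was at 36.01, 31.3 and 30.8 CPM in controls and 38.03, 32.7 and 29.8 CPM in mutants, with a 95% interval of -0.20 to 0.27. Ect2, which activates RhoA at the furrow, was at 33.4 ± 2.74 and 33.1 ± 1.905 CPM (interval -0.20 to 0.17). Racgap1, of the centralspindlin complex, was at 47.02, 41.2 and 38.9 CPM in controls and 42.02, 32.7 and 33.7 CPM in mutants (-0.23, adjusted p = 0.116, and -0.36, adjusted p = 0.0120, without mutant 1, edgeR).

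**Figure D5:**
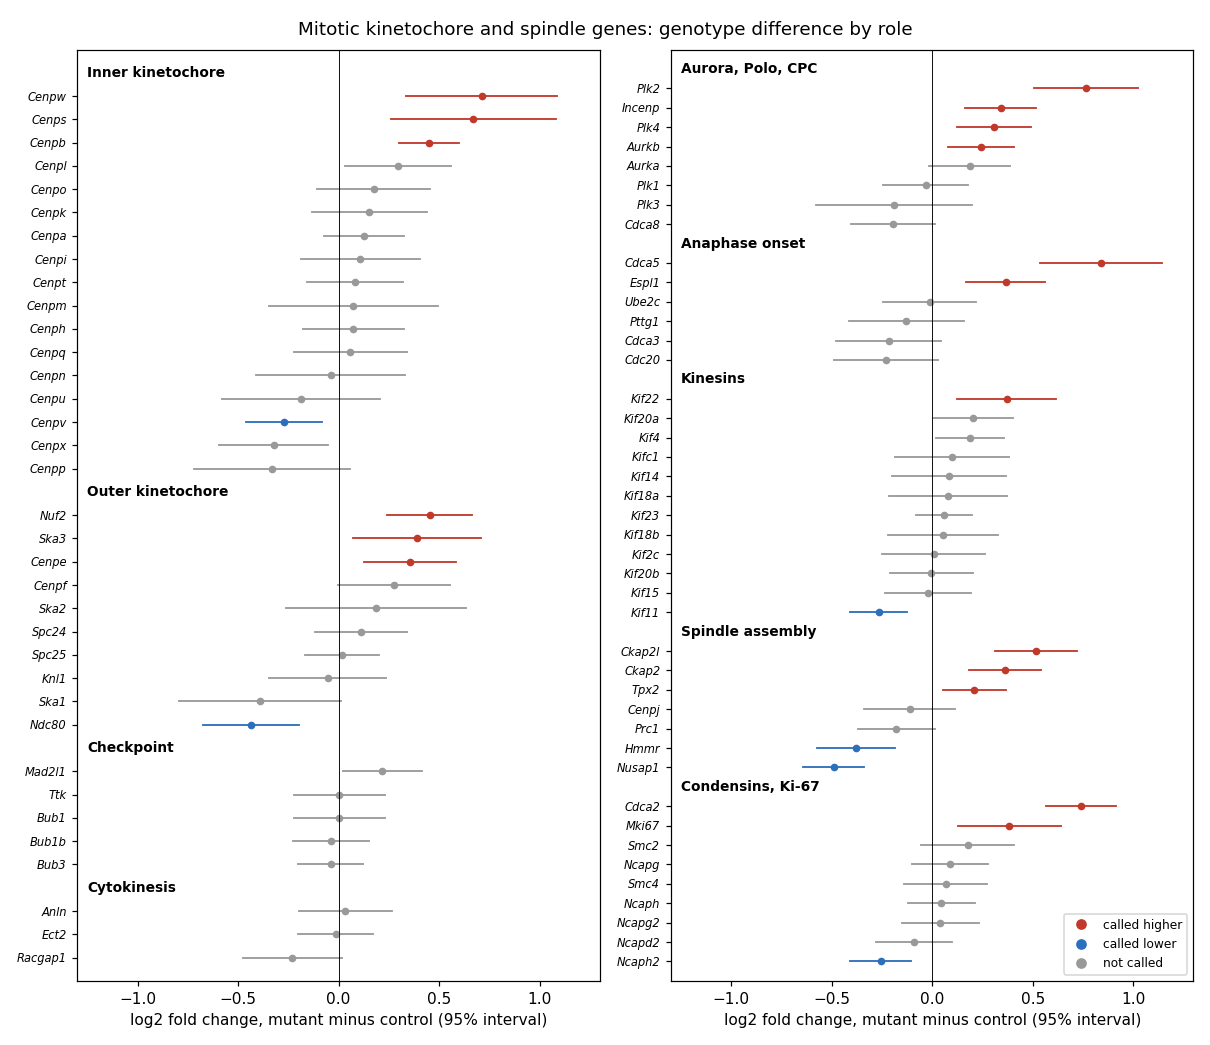
Log2 fold change, mutant minus control, with its 95% interval (horizontal axis) for the 77 members grouped by role (rows); red genes rose, blue genes fell and grey genes did not pass. Checkpoint and cytokinesis genes hold grey points only, and every group with a fall also holds a rise.

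Control libraries differed among themselves in a way that touched long genes. Control 1 minus the mean of control 2 and control 3, in log2(CPM + 0.5), was -0.44 for Knl1, -0.35 for Cenpf, -0.34 for Mki67, -0.33 for Cenpe and 0.39 for Cenpm. Across the 77 members this deviation had a Spearman correlation of -0.482 with exon length, and across all 18539 tested genes of -0.242. The genotype difference itself had a correlation with length of 0.126 across members and -0.131 across all tested genes. These are descriptions across genes that share the same libraries, and the part of this in the calls of Mki67 and Cenpe was not tested.

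Mitotic genes outside the symbol pattern numbered 40 in the list used here, of which 14 rose and 3 fell (median 0.10). Their share called was 42.5%, against 46.3% of all tested genes. Mis12, of the complex that bridges inner and outer kinetochore, rose from 22.03, 24.4 and 22.3 CPM to 39.5, 36.9 and 44.03 CPM (0.81, adjusted p = 6.61e-05, edgeR). Zwint, a kinetochore linker, rose from 31.7 ± 0.837 to 51.04 ± 2.43 CPM, Sgo1, the shugoshin that guards centromeric cohesin, from 12.3 ± 0.288 to 20.9 ± 1.36 CPM, and Fam83d, a spindle protein, from 7.08 ± 0.209 to 14.2 ± 1.23 CPM. Fam83d had the largest log2 fold change of this list (1.01).

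Regulators of G2/M transcription went both ways, with 6 up, 6 down and 11 not called of 23 (median -0.04). Their share called was 52.2%, against 46.3% of all tested genes. The pocket protein genes Rb1, Rbl1 and Rbl2, which repress cell cycle genes in resting cells, were all lower. Rbl1, Rbl2 and Foxm1 were named after their values were seen. Any part of these regulators in the differences of the members was not tested. Rb1 was at 63.3, 65.3 and 61.1 CPM in controls and 34.2, 39.3 and 35.7 CPM in mutants (-0.80, adjusted p = 2.87e-05, edgeR), Rbl1 fell by 0.50 and Rbl2 by 0.54 on the log2 scale. Mybl2, the B-Myb gene, was at 14.2, 13.4 and 13.4 CPM in controls and rose to 30.6, 24.5 and 24.7 CPM in mutants (0.96, adjusted p = 7.09e-05). Foxm1 rose from 24.1 ± 1.01 to 33.7 ± 2.96 CPM (0.49, adjusted p = 0.00117), E2f3 from 30.8 ± 0.593 to 47.5 ± 2.42 CPM, and Tfdp2 fell from 62.96 ± 3.16 to 42.0 ± 1.01 CPM.

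Genes that act with the members in separating chromosomes were counted in a pair of lists. Of the cohesin list 58.3% were called and of the anaphase-promoting complex list 70.6%, against 46.3% of all tested genes. Of 12 genes of cohesin and its loader none rose and 7 fell (median -0.32), among them the ring subunits Smc1a, from 252 ± 5.61 to 183 ± 14.7 CPM, Smc3, from 153 ± 17.1 to 105 ± 3.83 CPM, and Rad21, from 329 ± 7.84 to 241 ± 18.1 CPM. Stag2 fell from 193 ± 11.8 to 132 ± 9.76 CPM. Of 17 genes of the anaphase-promoting complex and its regulators 8 fell and 4 rose (median -0.27). Anapc1, its largest subunit, fell by 0.41, Anapc16 by 0.48 and Cdc16 by 0.33 on the log2 scale, while Fbxo5, the inhibitor Emi1, rose by a log2 fold change of 0.52 to 15.8 ± 1.17 CPM.

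Of 24 S-phase replication genes 9 rose and 2 fell (45.8% called, against 46.3% of all tested genes, median 0.17). Fen1, the flap endonuclease, rose from 29.2, 29.03 and 28.2 CPM to 92.0, 78.9 and 83.8 CPM (1.56, adjusted p = 5.80e-07, edgeR), and Ccne1, cyclin E1, from 10.8 ± 0.123 to 17.8 ± 2.82 CPM. Mcm3, of the replicative helicase, rose by a log2 fold change of 0.32, a call lost without control 1 (adjusted p = 0.0507) or control 3 (adjusted p = 0.0728) and at 0.18 without mutant 1 and mutant 2. Pola1, the catalytic subunit of DNA polymerase alpha, fell by 0.33 on the log2 scale, a call lost without control 2, control 3 or mutant 3 (adjusted p of 0.0680, 0.0544 and 0.0805) and at -0.50 without mutant 1 and mutant 2.

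Markers of other cells moved with genotype in the same libraries, where 46.3% of all tested genes were called. Of 10 macrophage and dendritic cell markers 9 rose and 1, C1qa, fell, and their summed level was 15.9 to 22.2 CPM in controls and 41.2 to 63.6 CPM in mutants. Of 10 markers of mature colonocytes, which no longer divide, 6 fell and none rose, with sums of 9884 to 11280 CPM in controls and 4610 to 6030 CPM in mutants. Of 10 fibroblast and smooth muscle markers 7 fell, with sums of 250.1 to 293 and 132 to 150.4 CPM. T and B cell markers summed to 11.7 to 14.8 and 14.6 to 20.8 CPM, with 1 of 7 tested higher. Of 6 endothelial markers Pecam1 rose from 5.55 ± 1.042 to 10.7 ± 0.916 CPM and Emcn fell from 2.18 ± 0.698 to 1.05 ± 0.296 CPM. The 6 summed to 10.7 to 11.6 CPM in controls and 12.8 to 16.2 CPM in mutants, where Pecam1 made up most of the sum, while 4 of the 6 had negative log2 fold changes (median -0.53). No list had a marker at 0 in all libraries. Their part in the differences of the mitotic genes was not tested.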

How the data were processed

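Per the file headers, the authors counted fragments per gene with featureCounts 1.6.4 against GENCODE vM25, on the strand of read 1, with no option for reads on several genes or sites. Near-copies such as Kifc1 can lose reads. Trim Galore 0.6.5, STAR 2.6.1d and GRCm38 stand in the submitters' processing notes. The deposited values are raw counts.

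The deposited counts went into edgeR 4.0.16 under R 4.3.3: filterByExpr (minimum count 10, minimum total 15), TMM scaling, the 2-sided quasi-likelihood F test with genotype as the only term, and Benjamini-Hochberg adjustment over 18539 genes. Log2 fold changes are mutant minus control. CPM is TMM-scaled. TPM divides counts by the exon length in the files. Fits were tested on simulated data. Chi-square per gene between libraries of 1 group was 13.2 to 90.4, far above counting noise, so none was treated as a repeat sequencing of another. That does not show that the libraries are separate mice.

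Members and lists were chosen with earlier results of these data known. Named from each role group were up to 4 members with the smallest p, any called member with a log2 fold change of at least 0.58 in size, and the highest and lowest level per length. Each other list gave its 4 smallest p. Xist, Ddx3y, Epcam, Cdh1, Pecam1, Emcn, C1qa, Knl1, Cenpa, Cenpf, Cenpm, Cenpx, Cdca8, Spc24, Spc25, Kif23, Tpx2, Birc5, Foxm1, Rbl1 and Rbl2 were named after their values were seen.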

Additional observations from a re-analysis of the deposited data

How the results depend on the processing

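Alternatives were 3 other scalings, 2 other filters, DESeq2 1.42.0, limma-voom (limma 3.58.1), a null of 1.5-fold, removal of CT010467.1, a replicate block, a threshold of 0.01, and leaving out each library or mutant 1 and mutant 2 together, which leaves 1 mutant assumed to vary like the controls. Against a null of 1.5-fold, 2747 genes (14.8%) were called, 1720 higher and 1027 lower, and among members 0 rose and 0 fell. At a threshold of 0.01, 10 members rose and 4 fell (18.2% called, against 31.7% of all tested genes). DESeq2 called the same 24 members (31.2%), and 44.1% of all tested genes. With library totals 23 rose and 4 fell (35.1% called, against 44.6% of all tested genes). Rises were 85.2% of member calls, against 75% with TMM. The median of members was 0.14, while 59% of all calls were rises and the median of all genes was 0.08. With no filter 15 rose and 9 fell, with 31.2% of members and 21.5% of all genes called. Leaving out 1 library gave 11 to 18 rises, the fewest without control 3, and 5 to 9 falls, the most without mutant 1. Such fits called 20.8% to 31.2% of members, against 35.7% to 43.9% of all tested genes. Without mutant 1 and mutant 2, 7 rose, 10 fell and the median was -0.0276.

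Same-numbered libraries deviated from their group means with correlations of -0.121, -0.103 and -0.146, and no library correlated best with its own number. The main fit therefore used no pairs. Deviations from means of 3 libraries are tied to each other, so these values cannot exclude pairing. The replicate block gave 14 rises and 5 falls (24.7% called, against 39.9% of all tested genes).

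Mettl14, the cell type markers and some other named genes, among them Cenpa, Cenpf, Cenpm, Knl1 and Kif23, were not followed gene by gene through the alternatives. Among the genes that were followed, no called gene changed sign. Uncalled ones near 0 did, as log2 fold changes. Anln was -9e-04 with no filter, -0.16 without mutant 1 and mutant 2 and -0.0775 to 0.116 without 1 library. Bub1b and Bub3 were 0.0307 and 0.0331 with library totals, and Bub1b -0.1141 to 0.0313 without 1 library. Ect2 was 0.0541 with library totals, 0.0112 with at least 1 CPM in 3 libraries and -0.0914 to 0.0319 without 1 library. Kif18a was -0.016 to 0.1201 without 1 library. Ttk was -0.0093 with upper-quartile scaling, -0.0313 with no filter, -0.0469 without mutant 1 and mutant 2 and -0.056 to 0.0354 without 1 library. Spc25 was -0.0181 with no filter, -0.0563 without mutant 1 and mutant 2 and -0.0416 to 0.0617 without 1 library, and Spc24 was -0.0261 without mutant 1 and mutant 2. Causes were not tested.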
